A study of Mus musculus with 6 samples.

Results

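The platelet-derived growth factor (PDGF) ligands and receptors were examined in primary mouse mesangial cells with and without transforming growth factor beta 1 (TGF-β1). The 7 members were the rows of the deposited table whose symbol was Pdgfa, Pdgfb, Pdgfc, Pdgfd, Pdgfra, Pdgfrb or Pdgfrl, out of 19730 rows in all, and each symbol had 1 row. Mesangial cells are contractile cells that hold together the capillary loops of the glomerulus. Per the labels, the cells were cultured at passage 3 to 6 in medium with 25.5 mM glucose and 20% serum. There were 3 Control libraries and 3 TGF-β1 libraries, the latter from cells given TGF-β1 at 10 ng/ml for 72 h, and the design asks which transcripts change with the treatment. The labels do not say what the Control cultures received or whether the 3 samples of a group came from separate animals or cultures, so p-values measure the spread between these samples, which may be technical. Both groups shared the high glucose and the serum.

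PDGFs are secreted dimers that drive the growth and migration of mesenchymal cells, and mesangial cells depend on them during glomerular development. PDGF-A and PDGF-B are cut to their active form inside the cell, whereas PDGF-C and PDGF-D are secreted in latent form and activated by extracellular proteases. The receptors PDGFRα and PDGFRβ are receptor tyrosine kinases. PDGF-A and PDGF-C homodimers act mainly through PDGFRα, PDGF-D acts mainly through PDGFRβ, and PDGF-B binds both. Pdgfrl encodes a receptor-like protein without a kinase domain.

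Promoter sequences are shown for Pdgfa and Pdgfc, which both rose with TGF-β1, and for Pdgfd, which was not called changed. They come from the run of 250 bases before a RefSeq transcription start (table of GRCm38.p6), placed on mm9, the build of the expression data, by its single exact match. For Pdgfa, the 93 bases nearest to the RefSeq start belong to the transcript that the row names and are left out, which leaves 157 bases. Capitals mark CAGAC (a SMAD half-site), CCCTCC (the CT element) and TATAAA (the TATA box) on either strand, which were picked for display after their matches were seen. The sequences are chr5:139470992-139471148 (minus strand), chr3:80840088-80840337 (plus strand) and chr9:6168236-6168485 (plus strand).
Pdgfa: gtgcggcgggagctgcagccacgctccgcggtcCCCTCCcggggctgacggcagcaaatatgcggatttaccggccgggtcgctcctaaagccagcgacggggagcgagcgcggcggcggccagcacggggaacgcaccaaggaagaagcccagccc
Pdgfc: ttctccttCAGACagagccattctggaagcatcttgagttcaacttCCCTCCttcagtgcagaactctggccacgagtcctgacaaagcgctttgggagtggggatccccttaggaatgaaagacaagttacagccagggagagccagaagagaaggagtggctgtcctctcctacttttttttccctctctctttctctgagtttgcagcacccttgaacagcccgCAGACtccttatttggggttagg
Pdgfd: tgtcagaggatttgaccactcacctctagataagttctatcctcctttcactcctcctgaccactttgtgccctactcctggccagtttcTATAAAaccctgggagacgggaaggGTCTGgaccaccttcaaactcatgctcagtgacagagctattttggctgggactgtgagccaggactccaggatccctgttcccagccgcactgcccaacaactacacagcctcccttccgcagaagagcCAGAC

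The Pdgfa window nearest to the start of its row was 72.4% G and C and held no CAGAC. It held CCCTCC at 217 and 90 bases before the RefSeq start, the former within the sequence shown, and the GC box GGGCGG at 93 and 86 bases, in the part left out. The Pdgfc window was 50.8% G and C and held CAGAC at 242 and 23 bases before the start, CCCTCC at 204 bases and GGAATG, the TEAD motif, at 137 bases. The Pdgfd window, at 53.6% G and C, held CAGAC at 135 and 5 bases before the start and TATAAA at 160 bases. Of 32851 windows of the same length in the table, 42.2% held CAGAC, 35.2% held CCCTCC, 32.7% held GGGCGG, 12.6% held GGAATG and 12.4% held TATAAA. The other motifs searched had no match in these 3 windows, namely the SMAD palindrome GTCTAGAC (in 0.167% of all windows), the SMAD site GGCGCC (9.59%), the CAGA box AGCCAGACA (0.301%, which contains CAGAC), the AP-1 motif TGANTCA (6.75%) and the EGR motif GCGNGGGCG (4.70%, which overlaps the GC box). The Pdgfc start coincides with that of the row, and the Pdgfd start lies 126 bases before it. Pdgfa had a further window, at a RefSeq start inside the transcript of its row, which was 66.4% G and C and held CCCTCC 3 times, GGGCGG once and no CAGAC. Pdgfra also had a window, which held CAGAC and CCCTCC once each.

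Expression was measured by RNA-Seq as FPKM, mapped fragments scaled by the length of the transcript and by the depth of the library. Depth, recovered from the steps between the lowest FPKM values, was 10.0 to 10.97 M fragments per library. Pearson's r of log2(FPKM + 1) across tested rows, which are not independent replicates, was 0.876 to 0.940 within groups and 0.818 to 0.853 between them. The replicate 2 libraries deviated from their group means in the most similar way of all library pairs, and calls that changed without them are given beside the results. Of the members, Pdgfa, Pdgfb and Pdgfc kept their call within replicates 1 and 3 alone, with limma adjusted p of 0.00432 or less for Pdgfa, 0.0268 or less for Pdgfb and 0.00214 or less for Pdgfc over all settings. In bulk RNA, fewer cells of a type and less RNA per cell cannot be told apart.

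The label of the cells was checked against marker genes. Of 14 mesangial and pericyte markers, 13 had a row and 7 had a mean of at least 1 FPKM. Their summed level was 1961 to 2412 FPKM in Control and 3356 to 3695 FPKM with TGF-β1, most of it from Vim, an intermediate filament gene of mesenchymal cells, at 2191 ± 238 and 3436 ± 175 FPKM (SD, n = 3, as for each mean that follows). The Vim row names a transcript of only 479 nt, and whether its value covers the whole gene is not stated. Mcam, a pericyte adhesion molecule whose row names a transcript subject to nonsense-mediated decay, was at 16.1 ± 0.437 FPKM in Control and 77.9 ± 4.42 FPKM with TGF-β1 (limma adjusted p 1.12e-05). Of these 7, 3 were called up and 1 down, Foxd1, a transcription factor of the stromal lineage, at 2.52 ± 0.171 and 0.564 ± 0.152 FPKM, while Notch3, at 2.55 ± 0.0639 and 1.97 ± 0.463 FPKM, and Tbx18, at 4.29 ± 0.329 and 4.59 ± 0.783 FPKM, were not called. Cspg4, the pericyte proteoglycan NG2, was under the filter and had 0.0735 ± 0.0367 and 1.21 ± 0.257 FPKM. Of the markers below the filter, Des was at 0.0995 to 0.550 FPKM over the 6 libraries, Itga8 at no more than 0.174 FPKM and Thy1 at no more than 0.180 FPKM. Pdgfrb was present in every library, but it is one of the members examined and was not on the marker list.

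TGF-β1 raised 3 of the 4 ligand genes. Pdgfa, Pdgfb and Pdgfc rose 3.74-fold, 2.52-fold and 3.38-fold in mean FPKM, whereas Pdgfd did not pass the test, at 1.02-fold. Of the receptors, Pdgfrb, the only one at a substantial level, was lower at 0.778 times its Control mean, and Pdgfra was at 0.217 FPKM or less in every library. Pdgfrl was 2.03-fold higher. Of the 7 members, 6 passed the filter of a mean of at least 1 FPKM, and 5 of these were called changed (limma, adjusted p under 0.05), 4 up and 1 down. Over all 11898 tested rows, 48.1% were called, 24.5% up and 23.6% down. The median log2 change of the 6 tested members was 1.01, against -0.02 for all tested rows. An increase of at least 1 on the log2 scale, as in Pdgfa, Pdgfb and Pdgfc, was called in 6.56% of tested rows. Only these 3 members were called in every one of the settings tried at the 0.05 threshold, and the calls of Pdgfrb and Pdgfrl were lost in several.

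**Figure D1:**
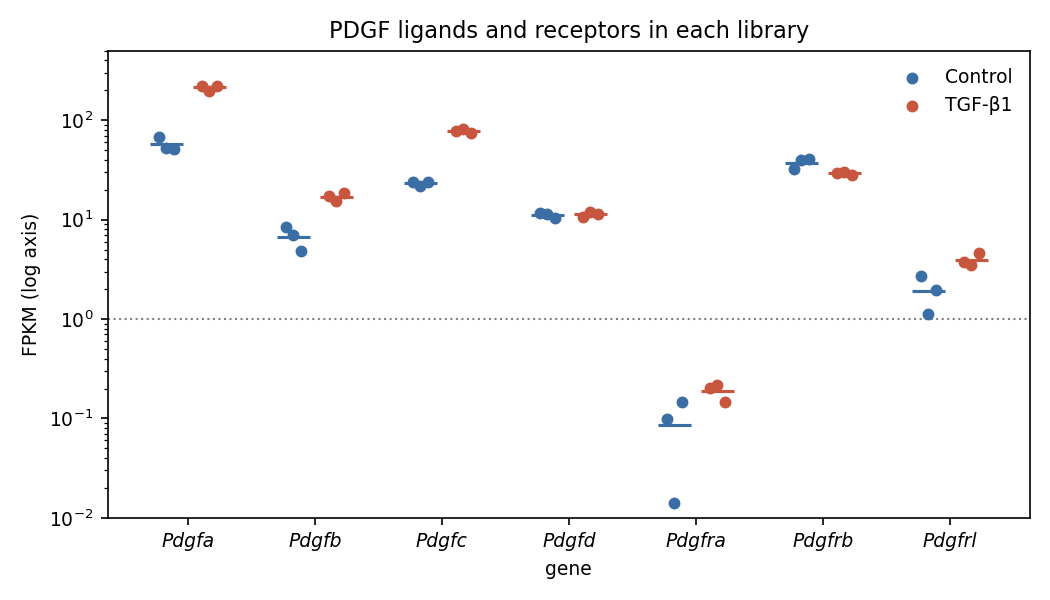
FPKM on a log axis of each PDGF ligand and receptor gene in the 3 Control libraries (blue) and the 3 TGF-β1 libraries (red); points are libraries, short bars are group means and the dotted line marks 1 FPKM. Pdgfa, Pdgfb and Pdgfc are higher in every TGF-β1 library, Pdgfd overlaps between groups, and Pdgfra lies at 0.217 FPKM or less in every library.

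Pdgfa encodes the A chain, which forms PDGF-AA and the heterodimer PDGF-AB. It had the highest level of the members in both groups. Control replicates 1 to 3 gave 67.3, 52.8 and 51.8 FPKM, and TGF-β1 replicates 1 to 3 gave 223, 199 and 221 FPKM. The groups did not overlap, and Control replicate 1 was the highest library of its group. The log2 change was 1.89 (SE 0.12, limma adjusted p 9.33e-05), where log2 changes are on the log2(FPKM + 1) scale. The mean rose from above 85.7% of the tested rows in Control to above 95.5% with TGF-β1. Over the alternatives the log2 change was 1.70 to 2.01. The gene lies on mm9 chromosome 5, 139451968 to 139473324, on the minus strand, and its row names a protein-coding transcript of 2060 nt with 6 exons, 1 of 7 annotated transcripts. Alternative splicing includes or skips an exon for a matrix-binding C-terminal stretch of the A chain, and whether the row separates these forms is not stated. The gene overlaps Gm17247 and 6330403L08Rik on the opposite strand but shares no exon base of the named transcript with them.

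Pdgfc encodes the C chain, a latent ligand with an N-terminal CUB domain. The Control libraries held 23.7, 21.8 and 23.9 FPKM, and those given TGF-β1 held 78.2, 81.6 and 75.0 FPKM. The replicates of each group lay close together and the groups did not overlap. The log2 change of 1.71 (SE 0.08, limma adjusted p 2.55e-05) had the smallest error of the members that passed the filter. With TGF-β1 the gene passed Pdgfrb and became the second member in order of level, and its mean rose from above 68.1% to above 88.5% of the tested rows. The gene lies on chromosome 3, 80840338 to 81017962, on the plus strand, and its row names a protein-coding transcript of 3521 nt with 6 exons. Gm16000, a non-coding transcript on the opposite strand at 2.47 to 12.9 FPKM, shares 147 exon bases with it. Whether the estimate used strand is not given in the sources used here.

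Pdgfb encodes the B chain, the ligand that binds both receptors and that drives mesangial cell recruitment into the glomerulus. In replicates 1 to 3 its FPKM was 8.45, 6.99 and 4.85 for Control, against 17.1, 15.4 and 18.6 for TGF-β1. Control replicate 3 was the lowest library, and every TGF-β1 library was above all Control libraries. The log2 change was 1.24 (SE 0.19, limma adjusted p 0.00240). The adjusted p was 0.00227 to 0.0268 over the alternatives, so the call held in all 16 of them. In Control, Pdgfb was the lowest ligand, and with TGF-β1 it passed Pdgfd. The gene lies on chromosome 15, 79826330 to 79845238, on the minus strand, has 1 annotated transcript of 2918 nt with 7 exons, and overlaps no other gene.

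Pdgfd encodes the D chain, a latent ligand of PDGFRβ. Its level was 11.7, 11.5 and 10.4 FPKM in Control replicates 1 to 3, compared with 10.7, 12.0 and 11.4 FPKM after TGF-β1. The groups overlapped throughout. The log2 change was 0.02, with a 95% interval of -0.19 to 0.23 (limma adjusted p 0.860), which does not include a change of the size seen in the other ligands. The sign of so small a value turned in several settings. The gene lies on chromosome 9, 6168612 to 6378843, on the plus strand, and its row names a protein-coding transcript of 1795 nt with 7 exons. It overlaps Ddi1 on the opposite strand with no shared exon base.

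Since these changes were unequal, the make-up of the ligand transcripts differed between groups. The summed FPKM of the 4 ligand genes was 91.0 to 111 in Control and 308 to 329 with TGF-β1, and the groups did not overlap. Pdgfd contributed 11.4% ± 0.926 (SD, n = 3) to this sum in Control, compared with 3.56% ± 0.331 after TGF-β1. Pdgfa made up 58.0% ± 2.16 and 66.7% ± 1.84, and its lowest TGF-β1 library, at 64.6%, was above its highest Control library, at 60.5%. The share of Pdgfc was 21.4 to 26.3% in Control and 23.0 to 26.5% with TGF-β1, and that of Pdgfb was 5.33 to 7.60% and 5.01 to 5.72%, so both overlapped between groups. Pdgfa and Pdgfc, the ligands that act mainly through PDGFRα, together made up 80.1 to 83.2% in Control and 90.8 to 91.5% with TGF-β1. Pdgfa stayed 2.16 to 2.95 times as high as Pdgfc in all 6 libraries. These shares are a description without a test, and FPKM does not give the amount of secreted protein.

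**Figure D2:**
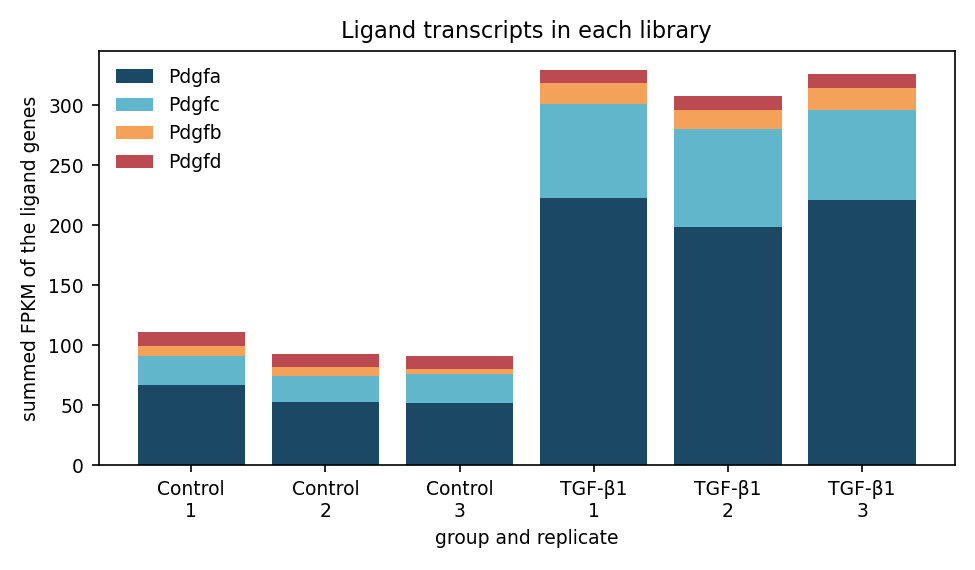
Summed FPKM of the ligand genes Pdgfa, Pdgfc, Pdgfb and Pdgfd, stacked, in each Control and TGF-β1 library. The stacks reach 91.0 to 111 FPKM in Control and 308 to 329 FPKM with TGF-β1, while the Pdgfd segment has nearly the same height in all 6 libraries.

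Pdgfrb, the receptor for PDGF-B and PDGF-D, gave 32.0, 39.5 and 41.1 FPKM in Control replicates 1 to 3, whereas the TGF-β1 replicates gave 29.3, 29.9 and 28.4 FPKM. Every TGF-β1 library was lower than every Control library, although Control replicate 1 lay close to them. Among all tested rows, 59.4% had groups that did not overlap and 29.5% were lower in that way. The log2 change was -0.34 (SE 0.11, limma adjusted p 0.0396), the smallest among the called members. The call was lost with the replicate number as a block, at an adjusted p of 0.0583, and within replicates 1 and 3 alone, at 0.164. It was also lost without Control replicate 2 (0.114), Control replicate 3 (0.0914), TGF-β1 replicate 1 (0.103), TGF-β1 replicate 2 (0.0734) or TGF-β1 replicate 3 (0.110), and the change stayed negative in all of these. When the libraries were rescaled to the sum of their protein-coding rows, which moved the median of all tested rows by -0.17, the log2 change of Pdgfrb was -0.53 (adjusted p 0.0141). The gene lies on chromosome 18, 61204804 to 61244715, on the plus strand, and its row names a protein-coding transcript of 5407 nt with 23 exons.

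Pdgfra, the receptor for PDGF-A and PDGF-C, had 0.0998, 0.0142 and 0.146 FPKM in Control replicates 1 to 3, and 0.201, 0.217 and 0.145 FPKM after TGF-β1. At this depth these values correspond to about 7, 1 and 10 fragments in Control and to 14, 14 and 10 with TGF-β1. The groups overlapped. Its mean was under the filter, and in the fit without the filter, where 30.5% of 19730 rows were called, the log2 change was 0.13 with a 95% interval of -0.02 to 0.28 (limma adjusted p 0.167). With a pseudocount of 0.1, which compresses low values less, the log2 change was 0.69 and the gene was again not called. Pdgfrb was 281 to 2771 times as high as Pdgfra in Control and 137 to 195 times as high with TGF-β1, where the upper value rests on the single fragment of Control replicate 2. The gene lies on chromosome 5, 75548316 to 75594229, on the plus strand, with a protein-coding row transcript of 6553 nt and 23 exons, and overlaps no other gene.

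The summed ligand FPKM was 2.22 to 3.47 times the Pdgfrb FPKM in the Control libraries and 10.3 to 11.5 times in the TGF-β1 libraries. The highest Control ratio was in replicate 1, which had both the highest Pdgfa and the lowest Pdgfrb of its group. The ligands with the highest levels, Pdgfa and Pdgfc, were thus those whose main receptor gene was close to 0.

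Pdgfrl reached 2.72, 1.12 and 1.97 FPKM in Control replicates 1 to 3, against 3.71, 3.47 and 4.59 FPKM in the replicates given TGF-β1. The groups did not overlap, as in 29.9% of tested rows in this direction. The log2 change was 0.78 (SE 0.22, limma adjusted p 0.0288). The call was lost without Control replicate 3 (adjusted p 0.0627), TGF-β1 replicate 1 (0.0691), TGF-β1 replicate 2 (0.0509) or TGF-β1 replicate 3 (0.0900), and within replicates 1 and 3 alone (0.0612). Without Control replicate 2, its lowest library, the log2 change was 0.56 (adjusted p 0.0478). The row names a retained-intron transcript of 2069 nt with 2 exons, on chromosome 8, 42011566 to 42025298, while the gene extends to 42076139. It is not stated whether the value covers the gene or only this transcript, so the change may not be that of the protein-coding mRNA.

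**Figure D3:**
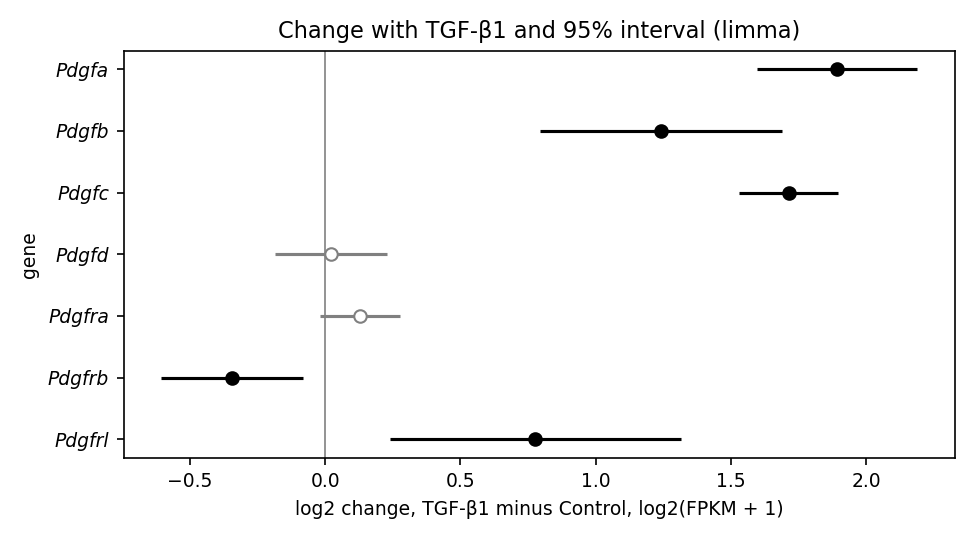
Log2 change of each member with TGF-β1 on the log2(FPKM + 1) scale, with its 95% interval from limma; filled points were called at an adjusted p under 0.05 and open points were not. Pdgfa, Pdgfc and Pdgfb lie at 1.89, 1.71 and 1.24, Pdgfrb lies below 0 at -0.34, and the intervals of Pdgfd and Pdgfra include 0.

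The order of levels was Pdgfa, Pdgfrb, Pdgfc, Pdgfd, Pdgfb, Pdgfrl and Pdgfra in Control, and Pdgfa, Pdgfc, Pdgfrb, Pdgfb, Pdgfd, Pdgfrl and Pdgfra with TGF-β1. No neighbours in either order overlapped in their range over 3 libraries. FPKM is per length, so levels can be set side by side between these genes, within the limit that each row names a single transcript.

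**Figure D4:**
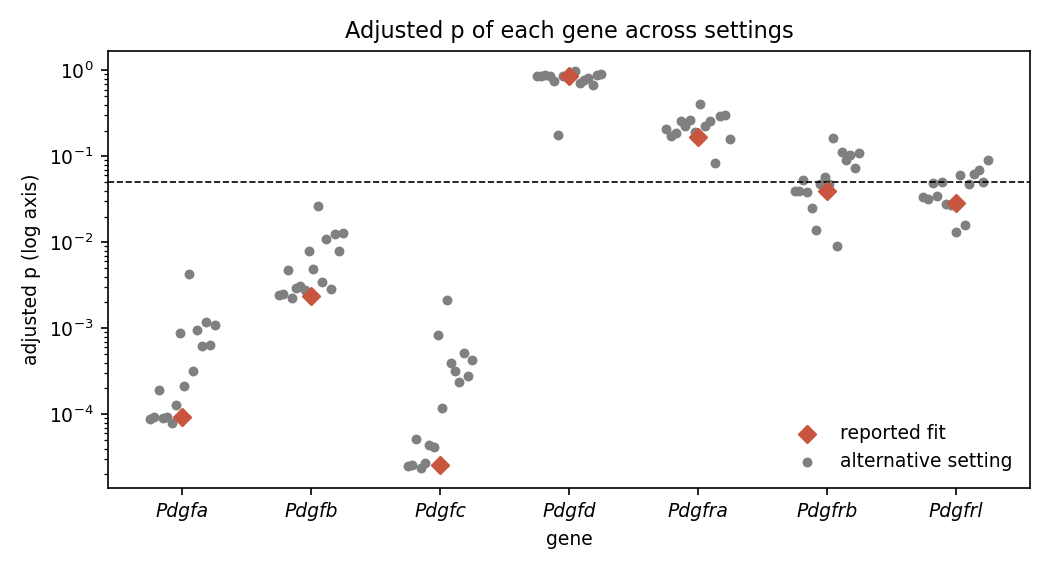
Adjusted p (limma, log axis) of each member in the reported fit (diamond) and under each alternative setting (grey points), with a dashed line at 0.05. Pdgfa, Pdgfb and Pdgfc stay below the line in every setting, Pdgfd and Pdgfra stay above it, and Pdgfrb and Pdgfrl lie on both sides.

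Genes that process or bind PDGF ligands were examined next. Of 14 listed, 8 passed the filter and 5 of these were called, 4 up and 1 down. That is 62.5%, beside 48.1% of all tested rows, with a median log2 change of 0.78. Thbs1, a matrix glycoprotein, rose from 18.2 ± 0.343 to 221 ± 15.2 FPKM (a log2 change of 3.53 at a limma adjusted p of 3.26e-06). Sparc, a matricellular protein that binds PDGF dimers with a B chain, rose from 2266 ± 217 to 5488 ± 409.8 FPKM (a log2 change of 1.28). Plau, the urokinase that can activate PDGF-D, rose from 2.58 ± 0.300 to 14.9 ± 1.07 FPKM (a log2 change of 2.15 at a limma adjusted p of 3.35e-05). Plat, the tissue plasminogen activator that cleaves latent PDGF-C, moved the other way and was named after its values were seen. It fell from 105 ± 1.64 to 53.8 ± 2.96 FPKM (a log2 change of -0.96 at a limma adjusted p of 1.75e-04). Furin, a convertase that cleaves the A and B chains, rose from 21.7 ± 4.59 to 49.0 ± 2.76 FPKM, and was also named after its values were seen, on a row that names a retained-intron transcript. After rescaling to the protein-coding sum, 4 genes of the list were up and 2 down.

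The genes that couple the receptors to the RAS-MAPK, PI3K-AKT, SRC and STAT pathways changed in both directions. Of 33 listed, 31 had a row, all of which passed the filter, and 18 were called, 10 up and 8 down, or 58.1% beside 48.1% of all tested rows, with a median log2 change of 0.17. Within replicates 1 and 3 alone, 14 were called. After rescaling to the protein-coding sum, 6 were up and 9 down, beside 2015 and 3927 over all tested rows against 2911 and 2810 as deposited. Pik3cb, a catalytic subunit of PI3K, rose from 2.92 ± 0.273 to 10.9 ± 0.826 FPKM (a log2 change of 1.60). Map2k1, the kinase MEK1, rose from 23.2 ± 3.88 to 61.3 ± 2.90 FPKM (a log2 change of 1.38), and Crk, an adaptor protein, rose from 15.1 ± 1.498 to 30.5 ± 1.36 FPKM (a log2 change of 0.97). Akt1, the most abundant gene of the list, was not called, at 129 ± 11.3 and 145 ± 10.2 FPKM (limma adjusted p 0.206).

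Genes that attenuate receptor signalling also went both ways. Of 14 listed, 13 passed the filter and 10 were called, 6 up and 4 down, or 76.9% beside 48.1% of all tested rows. The median log2 change was 0.18, and 5 were up and 4 down after rescaling to the protein-coding sum. Dusp6, a phosphatase of ERK, rose from 5.56 ± 1.21 to 17.6 ± 2.41 FPKM (a log2 change of 1.51), and Lrig1, a membrane protein that lowers receptor tyrosine kinase levels, rose from 4.81 ± 0.568 to 14.5 ± 1.07 FPKM (a log2 change of 1.42). Socs3, a suppressor of cytokine signalling, fell from 14.4 ± 0.544 to 4.96 ± 1.47 FPKM (a log2 change of -1.40).

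Among immediate early and other genes induced by growth factors, 14 of 17 passed the filter and 10 were called, 6 up and 4 down. That is 71.4%, beside 48.1% of all tested rows, with a median log2 change of 0.59. After rescaling to the protein-coding sum the split was 5 and 5. Has2, a hyaluronan synthase, rose from 0.0525 ± 0.0340 to 16.1 ± 1.78 FPKM (a log2 change of 4.02 at a limma adjusted p of 6.10e-06), and Myc from 7.49 ± 0.628 to 35.6 ± 3.47 FPKM (a log2 change of 2.11). Ccl2, a monocyte chemokine, fell from 20.8 ± 2.30 to 4.47 ± 1.17 FPKM (a log2 change of -2.01). Fos, Egr1 and Egr2 were named after their values were seen. Fos fell from 5.27 ± 1.12 to 1.54 ± 0.117 FPKM (limma adjusted p 9.84e-04), and Egr1 from 46.5 ± 9.13 to 17.8 ± 2.22 FPKM (0.00102). Egr2 rose from 1.07 ± 0.175 to 2.86 ± 0.0965 FPKM (0.00125). Junb, an AP-1 subunit, was low in replicate 2 of both groups, with 36.9, 7.88 and 27.4 FPKM in Control and 125, 1.23 and 125 FPKM with TGF-β1, and was not called (limma adjusted p 0.773). Within replicates 1 and 3 alone, Junb had a log2 change of 1.95 (limma adjusted p 0.00484), and 11 genes of the list were called.

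The list of related ligands and receptors gave 6 tested genes of 13 with a row. All 6 were called, 2 up and 4 down, beside 48.1% of all tested rows, with a median log2 change of -0.89. Vegfa, the endothelial growth factor, rose from 38.4 ± 2.75 to 133 ± 5.47 FPKM (a log2 change of 1.76), beside 1.71 for Pdgfc. Figf, which encodes VEGF-D, fell from 26.7 ± 5.22 to 1.13 ± 0.388 FPKM (a log2 change of -3.70), and Csf1r, a receptor of the same class as the PDGF receptors, fell from 6.27 ± 0.979 to 0.411 ± 0.156 FPKM (a log2 change of -2.36). Established TGF-β targets were changed in 10 of 10 cases, 9 up and 1 down, beside 48.1% of all tested rows, with a median log2 change of 2.27. The 1 called down was Tgfbi, at 3.41 ± 0.725 and 0.611 ± 0.254 FPKM (limma adjusted p 0.00116), named after its values were seen. Acta2, smooth muscle actin, rose from 997 ± 89.7 to 3887 ± 348 FPKM. The increases of Pdgfa, Pdgfc and Pdgfb, at 1.89, 1.71 and 1.24, were smaller than that median.

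**Figure D5:**
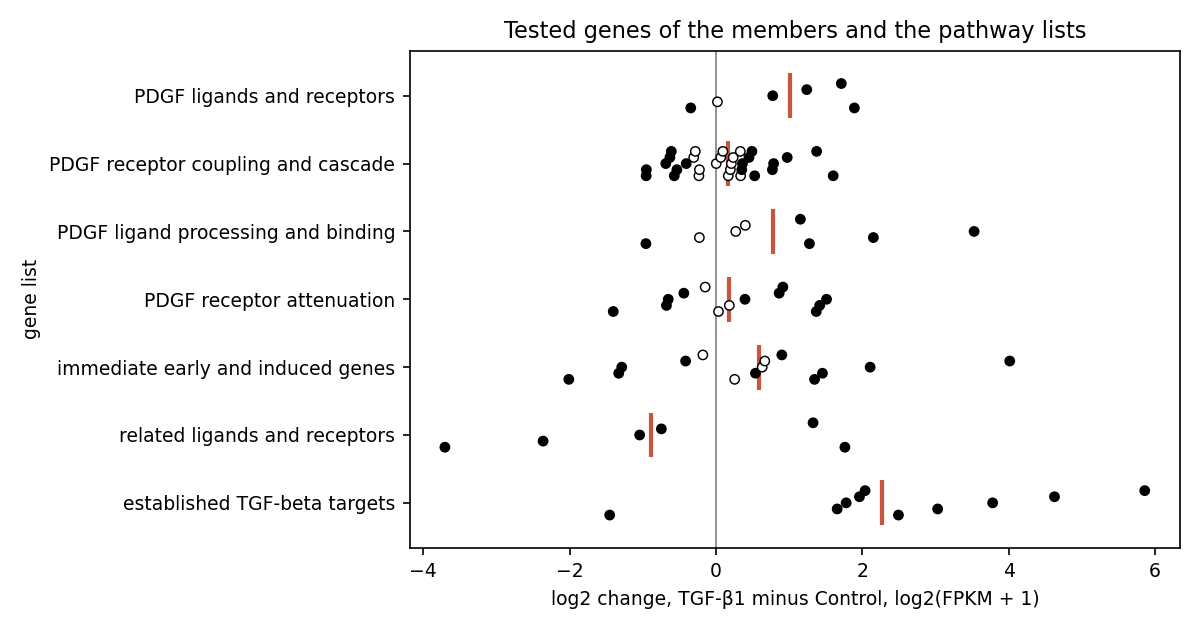
Log2 change with TGF-β1 on the log2(FPKM + 1) scale of every tested gene in the members and in each pathway list; filled points were called at an adjusted p under 0.05, open points were not, and the red bar is the list median. The receptor coupling and attenuation lists spread to both sides of 0, with medians of 0.17 and 0.18, while the established TGF-β targets have a median of 2.27.

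Several markers of other cell types that make or respond to PDGF moved with the treatment, and their part in the results above was not tested. Platelets are a classical source of PDGF, and 4 of 5 listed platelet markers had a row, with a summed level of 140 to 170 FPKM in Control and 84.3 to 91.0 FPKM with TGF-β1. Most of the Control sum was Ppbp, a chemokine gene, at 114 ± 19.0 and 3.93 ± 0.907 FPKM, while Pf4 ranged from 0.719 to 1.15 FPKM over the Control libraries and was listed at 0 in all 3 TGF-β1 libraries. Gp1bb, a subunit of the platelet von Willebrand factor receptor, moved the other way, at 40.2 ± 2.71 and 83.0 ± 1.68 FPKM (limma adjusted p 1.65e-04), and made up most of the TGF-β1 sum. The sum of 9 fibroblast markers, cells in which Pdgfra is usually prominent, was 132 to 141 FPKM in Control and 31.8 to 37.2 FPKM with TGF-β1, mostly Dcn in Control, at 104 ± 1.92 and 3.30 ± 0.472 FPKM, while Col3a1 was at 26.0 ± 3.38 and 27.9 ± 2.39 FPKM. The summed podocyte markers were at 27.8 to 32.2 and 15.0 to 15.6 FPKM, with Nphs1 at no more than 0.398 FPKM. The 8 tubular markers with a row summed to 116 to 149 FPKM in Control, nearly all from Cdh16, and to 9.88 to 11.1 FPKM with TGF-β1, with Cdh1 at no more than 0.123 FPKM. Other tubular markers moved in both directions at low levels. With TGF-β1, Krt18 rose from 0.279 ± 0.120 to 1.57 ± 0.219 FPKM, and Krt19 from 0.156 ± 0.150 to 1.06 ± 0.233 FPKM. Cubn rose from 0.636 ± 0.0795 to 1.28 ± 0.0481 FPKM (limma adjusted p 0.00143, 0.00563 and 0.00774 for Krt18, Krt19 and Cubn in the fit of all rows). Lrp2 fell from 1.43 ± 0.443 to 0.230 ± 0.0167 FPKM (limma adjusted p 0.00369 in that fit). Endothelial markers summed to 3.66 to 5.23 and 2.95 to 3.86 FPKM, which overlapped between groups, with Cdh5 at 0 in every Control library. Ehd3, the only endothelial marker tested, was not called (limma adjusted p 0.108). The macrophage markers summed to 87.0 to 114 and 9.03 to 11.9 FPKM, mostly Cd14, with Ptprc listed at 0 in every Control library.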

How the data were processed

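The submitters' processing notes and the methods of the study describe how the files were made. After discarding reads of low quality, the authors aligned the remainder to mm9 by TopHat (TopHat2 2.0.11 in the processing notes) and obtained FPKM by Cufflinks. Each library has its own column of FPKM in the deposited table, and no further scaling is stated. FPKM is not a count, so the count model of the study (DESeq) was not used here, and an FPKM of 0 is given as listed. The 6 columns were matched to samples by title.

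The 11898 of 19730 rows whose FPKM averaged 1 or more were tested on log2(FPKM + 1) with limma 3.58.1 in R 4.3.3 (lmFit, eBayes with a mean-variance trend), two-sided, with Benjamini-Hochberg adjustment over all tested rows. Fold changes of low genes are understated on this scale. Pdgfra, under the filter, was taken from the fit of all rows. The procedure was tested on simulated data. Coordinates, transcript lengths and overlaps came from the mm9 annotation GENCODE M1, in which 19699 rows were found by transcript identifier. Depth was fitted to rows of 1 annotated transcript with FPKM under 0.6, assuming fragments of 200 nt. At the fitted depth, at least 99.5% of their values worth under 10 fragments lay within 0.1 of a whole fragment. Chance gives 20% at a depth fixed beforehand. The depth was chosen to make the share near a whole fragment highest, so that share is not an independent check.

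Promoter windows came from RefSeq (GRCm38.p6), matched by symbol, and 10 motifs were searched on both strands. Windows were read for 4 members, and none was read on chromosome 18, where Pdgfrb lies. Python 3.11.15 was used for the rest. The replicate numbers were taken to pair the samples, as a hint from the data and not the design, because the deviations of same-numbered libraries from their group means correlated across genes at 0.210, 0.418 and 0.152 for replicates 1 to 3. Of the differently numbered pairs, Control 1 with TGF-β1 3 reached 0.201 and Control 3 with TGF-β1 1 reached 0.127, so replicates 1 and 3 were hardly set apart from each other. The reported fit has no block, as in the study, and a blocked fit was an alternative.

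The members and gene lists were chosen with earlier results of these data known. Named genes were the members, the 3 called genes with the largest change and the most abundant gene of each pathway list, the 2 most abundant genes of each marker list, and the 3 rows with the most similar profile to each member. Some genes that the rule selects are not reported here. Plat, Furin, Fos, Egr1, Egr2, Tgfbi and the markers Foxd1, Notch3, Tbx18, Cspg4, Des, Itga8, Thy1, Col1a2, Pf4, Nphs1, Krt18, Krt19, Lrp2, Cdh1, Cdh5 and Ptprc are outside the rule and were named after their values were seen. Alternatives were 2 other pseudocounts, 2 other filters, 2 rescalings, no trend, the block, replicate 2 as a batch term, replicates 1 and 3 alone, leaving out each library and an adjusted p under 0.01.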

Additional observations from a re-analysis of the deposited data

How the results depend on the processing

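Of the members, Pdgfa, Pdgfb and Pdgfc kept their direction and call under all 16 alternatives, and no pathway list's total of called genes moved by more than 1.5 times, although the receptor coupling genes called up went from 10 to 6 after rescaling to the protein-coding sum. Leaving out 1 library at a time gave log2 changes of -0.45 to -0.28 for Pdgfrb, 0.56 to 0.97 for Pdgfrl and -0.026 to 0.060 for Pdgfd, and 3 to 5 changed members. The call of Pdgfrb was lost at an unchanged log2 change of -0.34 without the filter on low values and with the replicate block (adjusted p 0.0531 and 0.0583), and within replicates 1 and 3 alone, at -0.32. The block changed no other call of a member. Within replicates 1 and 3, where fewer samples were fitted, Pdgfrl was at 0.63 and lost its call, which left 3 changed members. The change of Pdgfd was -0.037 after upper-quartile rescaling and -0.16 after rescaling to the protein-coding sum, both not called. At an adjusted p under 0.01, a stricter threshold by construction, 3 members and 3672 rows were changed. With a mean FPKM of at least 3, Pdgfra and Pdgfrl were not tested. Depth limits Pdgfra, which rests on at most 14 fragments per library.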

Other observations

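The rows most like each member were found from log2(FPKM + 1) centred on its mean over the 6 libraries, as the smallest root mean square (RMS) difference among 11610 rows of at least 300 nt. This is a description over 6 libraries of 2 groups, and any pair of rows with the same change scores high. For Pdgfa these included Gsr, a glutathione reductase (RMS difference 0.0629), and Gsto1, a glutathione transferase (0.0809), with log2 changes of 1.91 and 2.01. For Pdgfc they were St8sia2, Sh3glb1 and Gars, the glycyl-tRNA synthetase, with RMS differences of 0.0387, 0.0621 and 0.0717 and log2 changes of 1.71, 1.60 and 1.75. For Pdgfb they were Sec11c, Cks1b and Vamp5, with RMS differences of 0.0863 to 0.0993.

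For Pdgfd, which was tested and not called, the most similar rows were Srp68, Supt16h and Hnrnpl (RMS differences of 0.0187 to 0.0251), all near a log2 change of 0. For Pdgfrb they were Gphn, Igf2bp2 and Eif2c1 (0.0356 to 0.0375), with log2 changes of -0.37, -0.40 and -0.29. For Pdgfrl the nearest rows, Dusp8, Rnf165 and Rsph1, were less close, at 0.131 to 0.136.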
